A study of Mus musculus with 8 samples.

Results

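The genes of glycolysis, pyruvate and lactate handling and the hypoxia response were examined in differentiating mouse embryonic stem cells as 38 gene symbols picked by name. They comprised 2 glucose transporters, 17 glycolytic enzymes, 9 genes of pyruvate and lactate handling and 10 genes of the hypoxia response. All 38 were found among the 38610 symbols of the expression table, the pyruvate kinase gene under Pkm, and all 38 passed the filter that left 13188 genes for testing. The cells were CJ9, an embryonic stem cell line of strain 129S4/SvJae, sampled at day 4 after leukemia inhibitory factor (LIF), which sustains the undifferentiated state, was withdrawn. There were 3 libraries of Evx1as knockout (KO) cells, 3 labelled EVX1 KO and 2 of wild-type (WT) cells, all under the same withdrawal. Evx1as is a long noncoding transcript next to Evx1, which encodes a homeobox factor of the primitive streak, and CRISPR was used for the edits according to the series title. The site of each edit, the number of clones and whether replicates were separate cultures are not stated in the labels, so p-values measure only the spread between these samples.

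Glycolysis splits glucose into pyruvate, and its committed step is set by phosphofructokinase. Pyruvate is then reduced to lactate by lactate dehydrogenase and exported by monocarboxylate transporters, or enters mitochondria through pyruvate dehydrogenase, which pyruvate dehydrogenase kinases switch off. Hypoxia-inducible factor (HIF) turns on many of these genes when prolyl hydroxylases lack oxygen, and pluripotent cells are known for a high rate of glycolysis that falls in many lineages as they differentiate.

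Expression was deposited as FPKM, fragments normalized to transcript length and to the mapped total, which allows levels to be compared between genes, and absolute read depth is unknown. Summed FPKM ran between 531523 and 587798 per library, and between 12244 and 12442 genes reached 1 FPKM. Evx1as (5730457N03Rik) stood at 0.0549, 0.104 and 0.0485 FPKM in Evx1as KO, 5.01, 8.81 and 7.39 in EVX1 KO and 5.36 and 6.75 in WT. Evx1 transcript averaged 2.28 ± 1.66 FPKM in Evx1as KO, 26.3 ± 5.45 in EVX1 KO and 26.6 ± 6.50 in WT (SD, n = 3, 3 and 2), so it gives no check of the EVX1 KO label. Marker genes of differentiation state moved with the groups. The summed FPKM of 6 primed epiblast markers was 334 to 358 in Evx1as KO, 199 to 230 in EVX1 KO and 129 to 160 in WT, and that of 6 primitive streak and mesoderm markers was 39.6 to 135 in Evx1as KO, 304 to 333 in EVX1 KO and 326 to 366 in WT. In EVX1 KO against WT, 2 of these epiblast markers were called higher and 4 were not called, with Foxd3 at −0.47 ± 0.15 (log2 fold change). Of the streak and mesoderm markers Msgn1 was called lower there (−2.62 ± 0.29, adjusted p = 0.0124) and the other 5 were not called. The sum of 7 markers of undifferentiated stem cells was 556 to 653 in Evx1as KO, 465 to 480 in EVX1 KO and 371 to 416 in WT. That sum is carried mostly by Pou5f1 and Nanog. In EVX1 KO against WT 0 of the 7 were called and 3 had a positive log2 fold change. Nanog had 1.43 ± 0.29 there (adjusted p = 0.0538), Pou5f1 0.08 ± 0.11 and Esrrb −0.82 ± 0.27. Against WT, Pou5f1, Sox2 and Nanog of this list were called higher in Evx1as KO and Klf4 was called lower (log2 fold change −1.07 ± 0.19, adjusted p = 0.00622), and the other 3 were not called, with Zfp42 at −0.46 ± 0.22 and Esrrb at −0.25 ± 0.27. That of 8 fibroblast or feeder cell markers, of which 6 reached 1 FPKM in any library and none was at 0 throughout, was 13.5 to 23.3 in Evx1as KO, 20.4 to 26.4 in EVX1 KO and 21.1 to 35.2 in WT. The part of these shifts in the results on metabolic genes was not tested, and in bulk RNA fewer cells of a type cannot be told apart from less RNA per cell.

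The upstream regions of Ldha, Pdk1 and Pdk2 are printed with their matches to ACGTG or GCGTG, the core carried by regulatory regions of HIF target genes. Matches this short also occur in many other genes, as the shares given below show. Ldha was chosen because among the members that rose in Evx1as KO its region holds the most ACGTG matches, and Pdk1 and Pdk2 because they are the kinases that rose. Each run is the 250 bases before the most upstream RefSeq transcription start (GRCm38.p6), 5′ to 3′ on the gene's strand, with matches to either core on either strand in capitals. Ldha lies at chr7:46845554-46845803 (plus strand), Pdk1 at chr2:71872974-71873223 (plus strand) and Pdk2 at chr11:95041372-95041621 (minus strand).
Ldha: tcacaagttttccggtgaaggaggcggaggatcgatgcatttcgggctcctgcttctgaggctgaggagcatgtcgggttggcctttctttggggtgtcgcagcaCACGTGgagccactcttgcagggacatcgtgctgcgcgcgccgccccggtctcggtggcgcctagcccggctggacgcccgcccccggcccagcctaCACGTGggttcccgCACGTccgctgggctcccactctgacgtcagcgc
Pdk1: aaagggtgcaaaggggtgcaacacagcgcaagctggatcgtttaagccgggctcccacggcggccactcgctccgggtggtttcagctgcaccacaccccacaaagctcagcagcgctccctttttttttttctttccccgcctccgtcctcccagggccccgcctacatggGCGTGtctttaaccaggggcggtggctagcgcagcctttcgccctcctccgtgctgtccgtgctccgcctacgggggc
Pdk2: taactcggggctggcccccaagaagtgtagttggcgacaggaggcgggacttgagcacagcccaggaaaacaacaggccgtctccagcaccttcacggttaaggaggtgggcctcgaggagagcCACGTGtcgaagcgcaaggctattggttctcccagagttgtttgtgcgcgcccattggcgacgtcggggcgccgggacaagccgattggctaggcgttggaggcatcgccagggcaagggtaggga
The Ldha region held 5 ACGTG matches, counted per strand so that the palindrome CACGTG counts for each strand, and no GCGTG. The Pdk2 region held 2 ACGTG matches, which are the strands of 1 palindrome. The Pdk1 region held 1 GCGTG match and 0 of ACGTG.

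Cores of this kind were common in the windows of the members. RefSeq windows of 300 bases (250 before and 50 after the start) were matched for 36 of 38 members, all but Slc2a3 and Ndrg1. ACGTG was present in 55.6% of the members' most upstream windows, against 19.6% of the windows of all 27018 genes. The mean GC content was 63.0% in the members' windows and 53.6% in those of all genes. ACGTG was held by 7 of 12 members called higher in Evx1as KO (58.3%) and by 13 of 24 other members (54.2%). GCGTG was held by 6 of those 12 (50%) and by 15 of the other 24 (62.5%), against 32.5% of all genes. The other 24 include Pfkfb3 and Eno3, which were called lower, and these shares are a description without a test. A match is not evidence of binding, and other start sites of the same genes were not counted in these shares.

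The first comparison set Evx1as KO cells against WT cells. Of the 38 members 12 rose and 2 fell in Evx1as KO. The 12 that rose span phosphofructokinase, aldolase, phosphoglycerate kinase, enolase, lactate dehydrogenase A, the lactate transporters, a pair of pyruvate dehydrogenase kinases and the angiogenic growth factor Vegfa. The 2 that fell were Pfkfb3 and Eno3. Calls were made with limma across all 13188 genes at a Benjamini-Hochberg adjusted p under 0.05, and log2 fold changes are of FPKM + 1, which understates the change of low genes. In this comparison 24.5% of all genes were called (13% higher and 11.4% lower), against 36.8% of the members (31.6% higher and 5.26% lower). The median log2 fold change was 0.31 over the members and 0.02 over all genes tested.

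**Figure D1:**
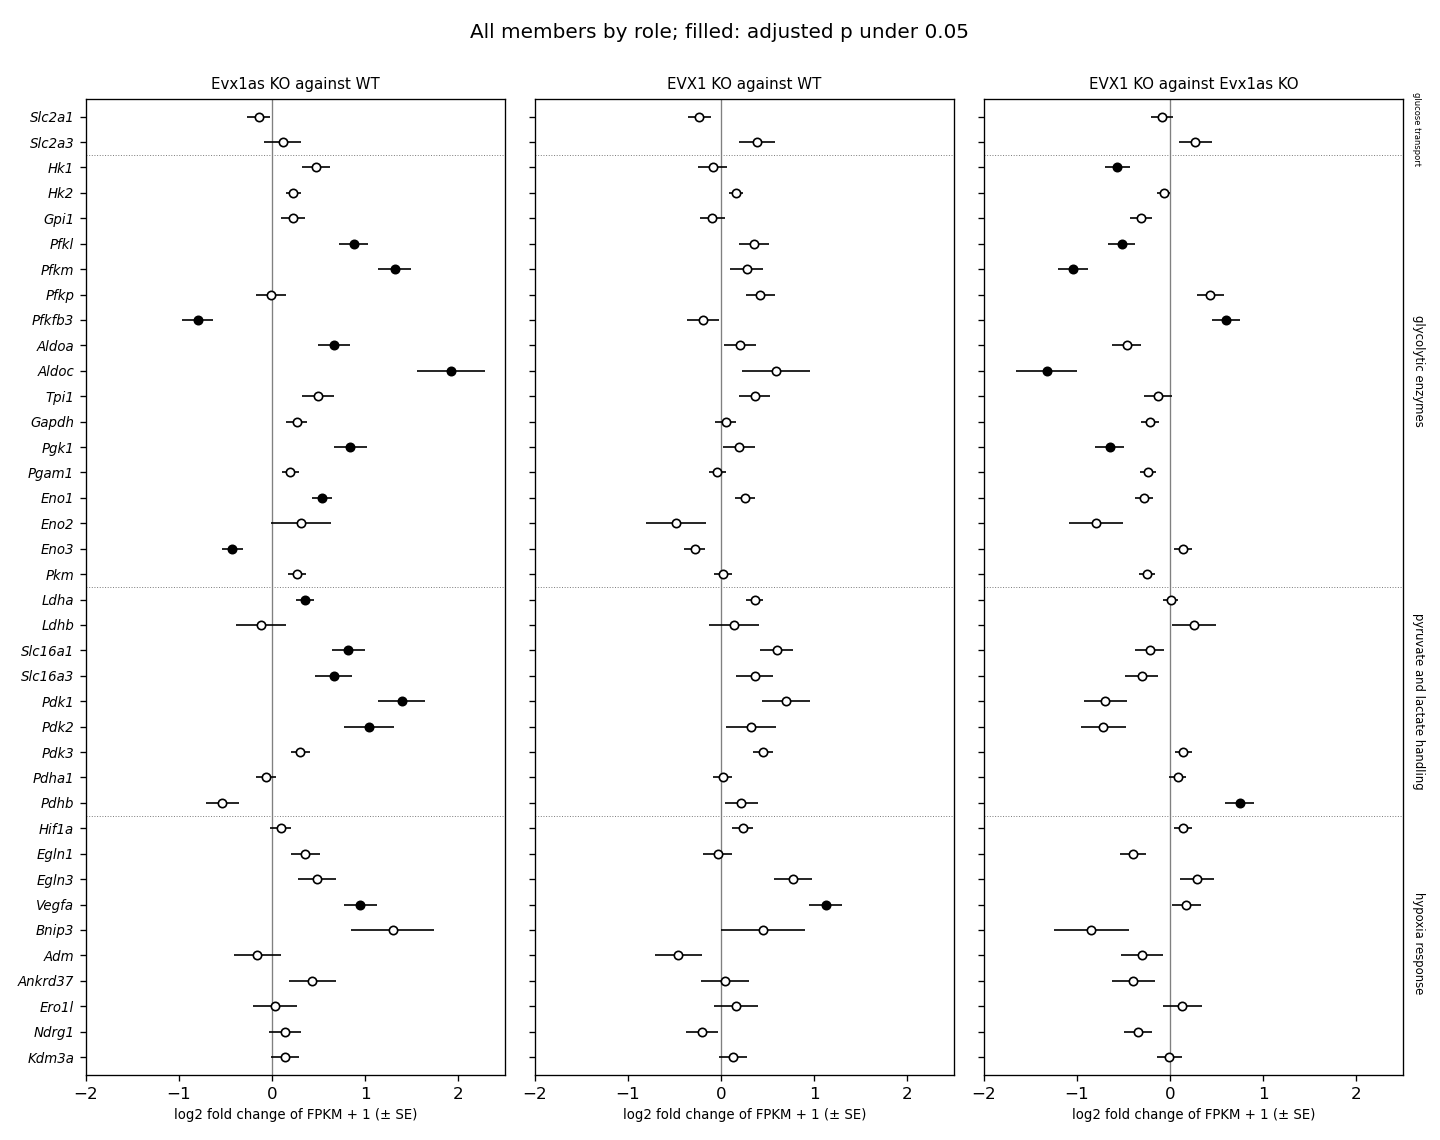
Log2 fold change of FPKM + 1 (± SE) of all 38 members, ordered by role, for Evx1as KO against WT (left), EVX1 KO against WT (middle) and EVX1 KO over Evx1as KO (right); filled points have an adjusted p under 0.05. The left panel has 14 filled points, the middle panel Vegfa alone and the right panel 7.

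Glucose uptake genes did not pass the test. Slc2a1 (GLUT1) stood at 483, 538 and 679 FPKM in Evx1as KO, with 627 and 613 in WT, a log2 fold change of −0.14 ± 0.13 (adjusted p = 0.44). Slc2a3 (GLUT3), the other major glucose transporter gene of these cells, averaged 791 ± 74.0 FPKM in Evx1as KO and 730 ± 42.6 in WT (fitted log2 change 0.11 ± 0.19, adjusted p = 0.704). For each of them the Evx1as KO and WT libraries overlapped. The EVX1 KO libraries of Slc2a1, at 540, 533 and 510.1 FPKM, lay below both WT libraries, and neither gene passed an unadjusted p of 0.05 in any comparison.

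Hexokinase, which traps glucose as glucose 6-phosphate, narrowly missed the threshold. Hk1 stood at 10.9, 9.84 and 12.9 FPKM in Evx1as KO, 8.24, 7.58 and 5.96 in EVX1 KO and 8.09 and 7.40 in WT. All 3 Evx1as KO libraries lay above the other 5, and against WT the log2 fold change was 0.47 ± 0.15 (adjusted p = 0.0503). Hk1 was called in 6 of 17 alternative analyses (0.0297 without EVX1 KO replicate 3) and not in the other 11. Hk2, the more abundant isozyme, averaged 40.5 ± 0.654 FPKM in Evx1as KO and 34.4 ± 0.747 in WT (fitted log2 change 0.23 ± 0.08, adjusted p = 0.0646). Hk2 was called in 1 of 17 alternatives (0.0422 with no filter on low values). Gpi1, which converts glucose 6-phosphate to fructose 6-phosphate, had a log2 fold change of 0.22 ± 0.13 (adjusted p = 0.243).

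Phosphofructokinase rose in 2 of its 3 subunits. Pfkl, the liver-type subunit and the most abundant of 3, stood at 134, 105 and 124 FPKM in Evx1as KO, 102, 82.9 and 69.1 in EVX1 KO and 66.0 and 64.4 in WT. The Evx1as KO libraries all exceeded every other library, and Pfkl rose by 0.88 ± 0.16 on the log2 scale against WT (adjusted p = 0.00625). Pfkm, the muscle-type subunit (chr15:97923019-97962878 in the coordinates of the deposited table, whose build is not stated with it), stood at 31.7, 25.1 and 32.2 FPKM in Evx1as KO, 16.2, 12.7 and 12.8 in EVX1 KO and 13.4 and 9.35 in WT. Its Evx1as KO libraries lay clear of the rest, while EVX1 KO and WT overlapped, and its log2 fold change against WT was 1.32 ± 0.18 (adjusted p = 0.00209). Pfkp, the platelet-type subunit, averaged 7.27 ± 0.950 FPKM in Evx1as KO and 7.41 ± 1.95 in WT (fitted log2 change −0.01 ± 0.16, adjusted p = 0.965). Pfkm made up 18.2%, 18.3% and 19.8% of the summed phosphofructokinase FPKM in Evx1as KO, 12.6%, 11.9% and 14.0% in EVX1 KO and 15.2% and 11.7% in WT. Pfkl and Pfkm passed in Evx1as KO against WT under all 17 alternative analyses (adjusted p up to 0.0435 and 0.0177).

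Pfkfb3 went the other way. It makes fructose 2,6-bisphosphate, the allosteric activator of phosphofructokinase, and stood at 14.1, 19.9 and 18.9 FPKM in Evx1as KO, 32.0, 27.1 and 22.7 in EVX1 KO and 31.1 and 31.1 in WT. The Evx1as KO libraries lay below all others, and Pfkfb3 fell by 0.80 on the log2 scale against WT (SE 0.17, adjusted p = 0.0108). It lost its call without WT replicate 1 or 2 (adjusted p = 0.063 and 0.0618), and its adjusted p ran between 0.00784 and 0.063 over the alternatives. Its relatives were named by rule: Pfkfb2, listed with the other glucose enzymes, stood at 2.23, 3.67 and 1.93 FPKM in Evx1as KO, 5.82, 5.36 and 6.14 in EVX1 KO and 7.67 and 7.16 in WT. It too was lower in every Evx1as KO library than in any other (log2 fold change −1.25 ± 0.19, adjusted p = 0.00307).

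Aldolase, which cleaves fructose 1,6-bisphosphate, rose in both of its measured isozymes. Aldoa, the main form, stood at 1321, 1031 and 1299 FPKM in Evx1as KO, 1031, 914 and 709 in EVX1 KO and 843 and 687 in WT. Its log2 fold change against WT was 0.67 ± 0.17 (adjusted p = 0.0235), with the lowest Evx1as KO library above both WT libraries and level with EVX1 KO replicate 1. Aldoc, the brain-type form (chr11:78137699-78140262, deposited coordinates), stood at 18.6, 11.0 and 21.7 FPKM in Evx1as KO, 9.59, 5.60 and 3.83 in EVX1 KO and 4.85 and 2.65 in WT. It had the largest log2 fold change of the 38 members, 1.92 ± 0.37 (adjusted p = 0.00726), and no Evx1as KO library overlapped another group. Aldoc remained a minor part of the aldolase FPKM, at 1.06% to 1.65% in Evx1as KO, 0.538% to 0.922% in EVX1 KO and 0.384% to 0.572% in WT. Aldoc lost its call without WT replicate 2 (adjusted p = 0.0636, range over the alternatives 0.0046 to 0.0636). Aldoa lost its call without Evx1as KO replicate 1 or 3 (0.0683 and 0.0761), without WT replicate 1 or 2 (0.0542 and 0.159) or with no filter on low values (0.0737), over a range of 0.011 to 0.159.

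The enzymes from triose phosphate to pyruvate gave calls at phosphoglycerate kinase and enolase. Pgk1, the first ATP-yielding enzyme of the pathway, stood at 501, 442 and 509.8 FPKM in Evx1as KO, 390.5, 315 and 237 in EVX1 KO and 274 and 264.5 in WT. All Evx1as KO libraries exceeded the other 5 (log2 fold change against WT 0.84 ± 0.18, adjusted p = 0.0105). Eno1, the main enolase, stood at 2005, 1644 and 1630.1 FPKM in Evx1as KO, 1527, 1392 and 1414 in EVX1 KO and 1217 and 1198 in WT (fitted log2 change 0.54 ± 0.10, adjusted p = 0.00774). The Eno1 libraries formed 3 bands with no overlap, highest in Evx1as KO and lowest in WT. Eno3, the muscle-type enolase, was the exception, at 23.3, 23.8 and 26.3 FPKM in Evx1as KO, 30.0, 27.3 and 24.2 in EVX1 KO and 34.9 and 31.5 in WT. Both WT libraries lay above all 6 knockout libraries, and in Evx1as KO Eno3 fell by 0.43 (log2, SE 0.11, adjusted p = 0.0246).

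The remaining glycolytic enzymes gave values without a call. Log2 fold changes in Evx1as KO against WT were 0.49 ± 0.17 for Tpi1 (triose phosphate isomerase, adjusted p = 0.062) and 0.26 ± 0.11 for Gapdh (0.112). They were 0.20 ± 0.09 for Pgam1 (phosphoglycerate mutase, 0.145) and 0.27 ± 0.09 for Pkm (pyruvate kinase, 0.068). Tpi1 was called in 4 of 17 alternatives (0.0169 without EVX1 KO replicate 3) and not in the other 13. Pkm was called in 1 of 17 (0.0349 without EVX1 KO replicate 3). Eno2, the neuronal enolase, was low and overlapped between the groups, at 4.17 to 7.31 FPKM in Evx1as KO against 7.04 and 2.496 in WT (0.31 ± 0.32, adjusted p = 0.51). Over the 17 glycolytic enzymes 6 rose (35.3%, against 13% of all genes) and 2 fell (11.8%, against 11.4% of all genes) in Evx1as KO, with a median of 0.31. The summed FPKM of 16 of them, all but the regulatory Pfkfb3, was 10776, 9092 and 9916 in Evx1as KO, 8925, 8122 and 7429 in EVX1 KO and 7898 and 7192 in WT. Each Evx1as KO sum exceeded those of the other 5 libraries, that of replicate 2 only slightly.

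These calls depended on single libraries in part. Pgk1 lost its call without WT replicate 1 or 2 (adjusted p = 0.0576 and 0.0657, range over the alternatives 0.00267 to 0.0657), and Eno1 without WT replicate 2 (0.0507, range 0.00588 to 0.0507). Eno3 lost its call without Evx1as KO replicate 1 or 2 (0.0726 and 0.0549), without WT replicate 1 or 2 (0.14 and 0.0623) or with a replicate block (0.0629), over a range of 0.0175 to 0.14. When a WT library is left out, the remaining one is taken to vary as the knockout groups do. The locus Gm5506, which covers nearly the same deposited interval as Eno1, held 933 ± 66.1 FPKM in Evx1as KO and 807 ± 36.6 in WT (fitted log2 change 0.21 ± 0.13, adjusted p = 0.276), and how reads were shared between them is not given, so the size of the Eno1 change is uncertain. Pseudogene copies of other glycolytic enzymes may take reads in the same way.

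**Figure D2:**
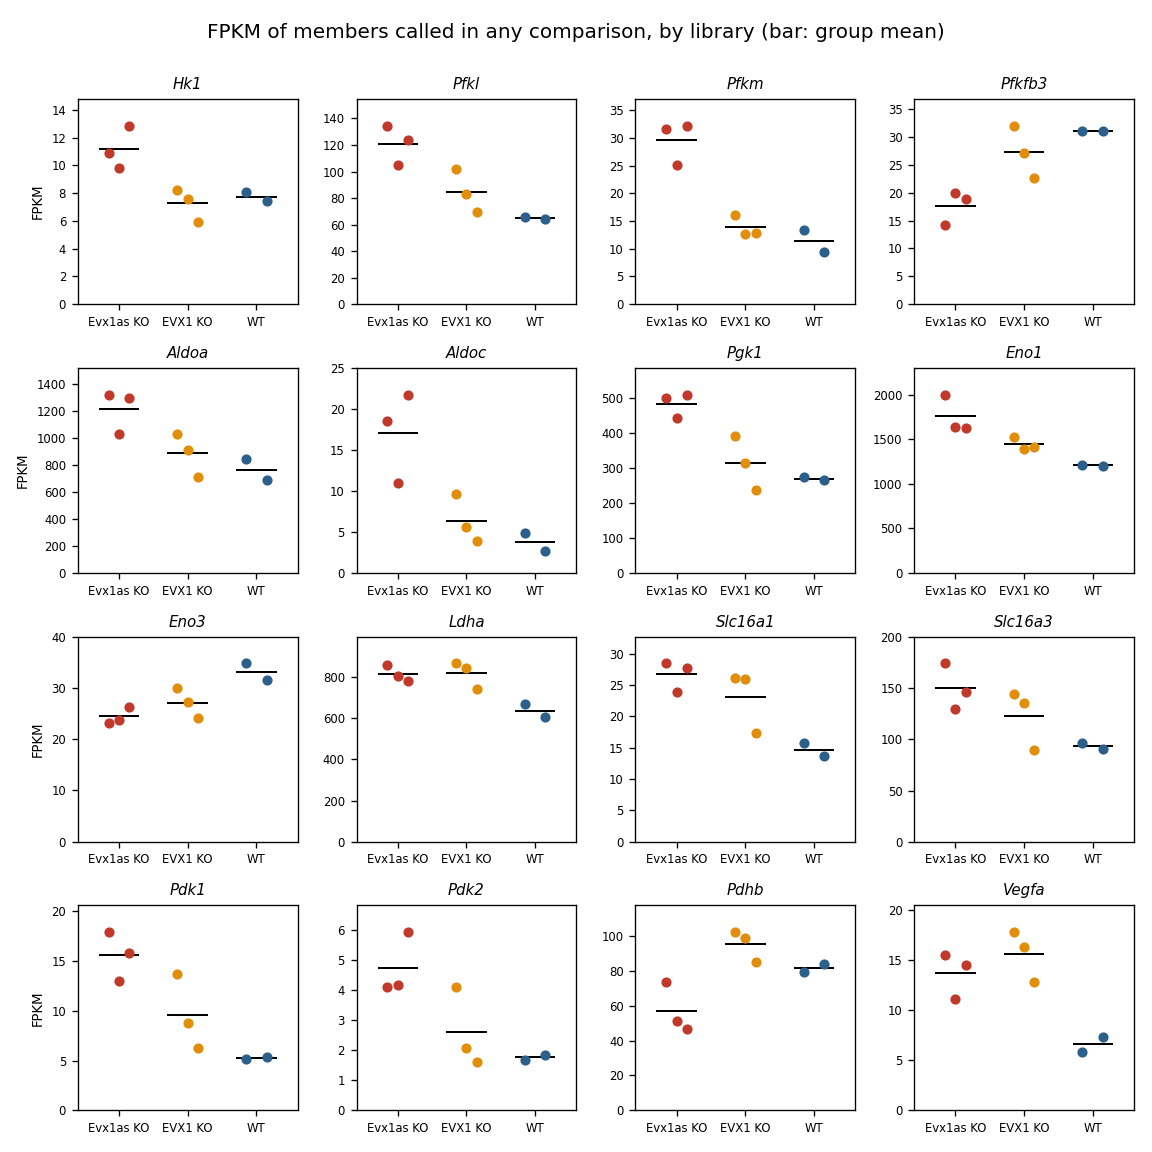
FPKM (vertical axes from 0) of the 16 members called in any comparison, 1 point per library, with the group mean as a bar, for Evx1as KO, EVX1 KO and WT. Evx1as KO libraries lie clearly above all others for Hk1, Pfkl, Pfkm, Aldoc, Pgk1 and Eno1, and below all others for Pfkfb3 and Pdhb. For Ldha, Slc16a1, Pdk1 and Vegfa the knockouts overlap each other and all 6 knockout libraries lie above the WT libraries.

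Among the genes of pyruvate and lactate handling, 5 of 9 rose in Evx1as KO (55.6%, against 13% of all genes) and 0 fell, with a median log2 fold change of 0.36. At an unadjusted p under 0.05 (limma) 6 were higher and 1 lower, against 5079 of all 13188 genes in either direction. Those that rose were Ldha, Slc16a1, Slc16a3, Pdk1 and Pdk2, while Ldhb, Pdha1 and Pdhb had negative values without a call. Ldha, which reduces pyruvate to lactate, stood at 858, 807 and 781 FPKM in Evx1as KO, 868, 847 and 741 in EVX1 KO and 668 and 606 in WT. All 6 knockout libraries exceeded WT, and the knockouts overlapped each other (log2 fold change in Evx1as KO 0.36 ± 0.09, adjusted p = 0.0258). Ldhb, the heart-type subunit, averaged 174 ± 21.2 FPKM in Evx1as KO and 188 ± 21.2 in WT (fitted log2 change −0.12 ± 0.27, adjusted p = 0.777).

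The proton-coupled transporters that carry lactate out of cells rose as well. Slc16a1 (MCT1) stood at 28.5, 23.9 and 27.7 FPKM in Evx1as KO, 26.1, 25.9 and 17.3 in EVX1 KO and 15.8 and 13.6 in WT. Every knockout library lay above WT, EVX1 KO replicate 3 only slightly (log2 fold change in Evx1as KO 0.82 ± 0.18, adjusted p = 0.0114). Slc16a3 (MCT4), a transporter of strongly glycolytic cells, stood at 175, 129.9 and 146 FPKM in Evx1as KO, 144, 136 and 89.4 in EVX1 KO and 96.6 and 90.8 in WT. Here EVX1 KO replicate 3 lay just below both WT libraries (log2 fold change in Evx1as KO 0.66 ± 0.20, adjusted p = 0.0392).

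Pyruvate dehydrogenase kinases phosphorylate and inactivate the pyruvate dehydrogenase complex. Pdk1 (chr2:71711328-71741915, deposited coordinates), the HIF-responsive isozyme whose upstream region is printed above, stood at 17.9, 13.0 and 15.8 FPKM in Evx1as KO, 13.7, 8.77 and 6.30 in EVX1 KO and 5.18 and 5.34 in WT. The WT libraries were closely spaced, all knockout libraries lay above them, and the EVX1 KO libraries were widely spread. The log2 fold change in Evx1as KO was 1.39 ± 0.25 (adjusted p = 0.00629), and the call held in all 17 alternatives (adjusted p up to 0.045). Pdk2 stood at 4.11, 4.15 and 5.93 FPKM in Evx1as KO, 4.12, 2.08 and 1.61 in EVX1 KO and 1.68 and 1.83 in WT. Its Evx1as KO libraries exceeded WT, while EVX1 KO ran from below WT to the Evx1as KO level (log2 fold change in Evx1as KO 1.04 ± 0.27, adjusted p = 0.0235). Pdk3 stood at 9.49, 9.74 and 8.69 FPKM in Evx1as KO, 9.92, 11.2 and 10.0 in EVX1 KO and 7.12 and 7.55 in WT. The knockout libraries all lay above WT without a call (log2 fold change in Evx1as KO 0.30 ± 0.10, adjusted p = 0.0626).

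The make-up of the kinases was computed for each library, without a test. Pdk1 made up 56.9%, 48.3% and 52.0% of the summed Pdk1, Pdk2 and Pdk3 FPKM in Evx1as KO, 49.4%, 39.7% and 35.1% in EVX1 KO and 37.1% and 36.3% in WT. Pdk3 made up 30.1%, 36.2% and 28.5% in Evx1as KO, 35.8%, 50.9% and 55.9% in EVX1 KO and 50.9% and 51.3% in WT. Pdk1 was the largest of the 3 in every Evx1as KO library and in EVX1 KO replicate 1, and Pdk3 in the others. The fourth kinase, Pdk4, did not reach 1 FPKM in any library and was not tested.

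**Figure D3:**
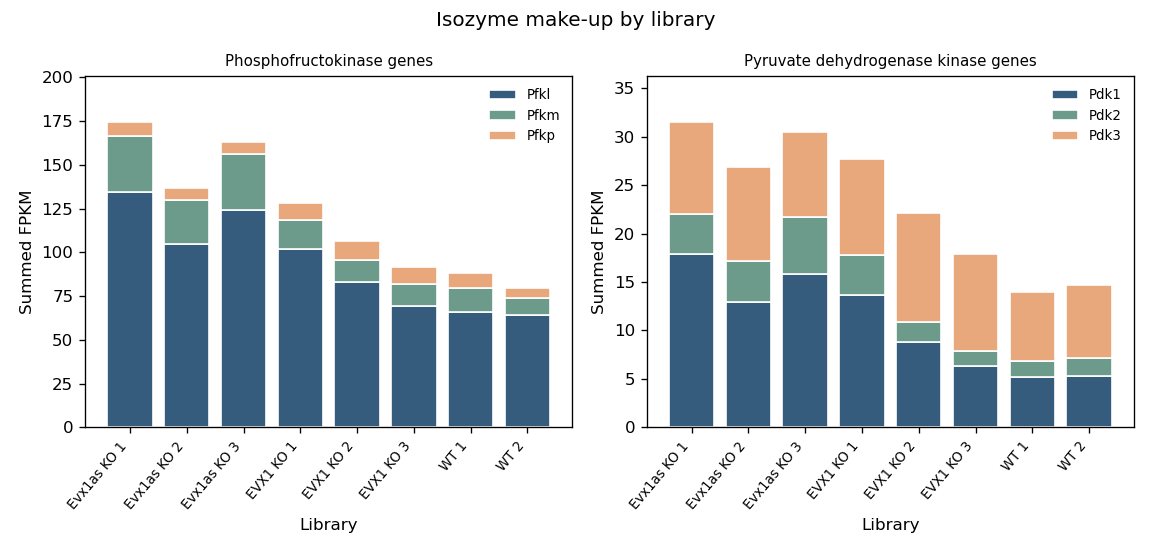
Summed FPKM of the phosphofructokinase genes and of the pyruvate dehydrogenase kinase genes in each library, stacked by isozyme, with Evx1as KO and EVX1 KO left of WT. The Pdk sum is 31.5, 26.9 and 30.4 in Evx1as KO, 27.7, 22.1 and 17.9 in EVX1 KO and 14.0 and 14.7 in WT.

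Subunits of pyruvate dehydrogenase itself did not rise. Pdha1, the catalytic alpha subunit, averaged 63.7 ± 2.36 FPKM in Evx1as KO and 66.7 ± 4.03 in WT (fitted log2 change −0.07 ± 0.11, adjusted p = 0.686). Pdhb, the beta subunit, stood at 73.7, 51.3 and 46.8 FPKM in Evx1as KO, 102, 99.0 and 84.9 in EVX1 KO and 79.3 and 84.1 in WT. The Evx1as KO libraries lay below all others (log2 fold change against WT −0.53 ± 0.17, adjusted p = 0.0546). Pdhb lies on chromosome 14, whose genes had a median of 0.13, −0.36 and −0.34 (log2, relative to each gene's mean) in Evx1as KO replicates 1, 2 and 3. With chromosome medians removed the log2 fold change was −0.33 (adjusted p = 0.0438).

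Several calls in this group were lost under alternatives. With no filter on low values Ldha (adjusted p = 0.065), Pdk2 (0.0707) and Slc16a3 (0.101) lost their calls, and with no intensity trend Ldha (0.0523) and Slc16a3 (0.0567) did. Slc16a1 lost its call without WT replicate 2 (adjusted p = 0.082, range over the alternatives 0.00284 to 0.082). Pdk2 also lost its call without Evx1as KO replicate 3 (0.0776) or WT replicate 1 or 2 (0.113 and 0.0946), over a range of 0.00565 to 0.113. Ldha also lost its call without Evx1as KO replicate 1 or 3 (0.0738 and 0.0542) or WT replicate 1 or 2 (0.06 and 0.157), over a range of 0.0166 to 0.157. Slc16a3 also lost its call without Evx1as KO replicate 1 or 3 (0.108 and 0.0891), EVX1 KO replicate 2 (0.0519) or WT replicate 1 or 2 (0.123 and 0.169), over a range of 0.0076 to 0.169.

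Of the 10 hypoxia response genes only Vegfa rose in Evx1as KO and 0 fell. That is 10% of the group called higher, near the 13% of all genes called higher, while 11.4% of all genes were called lower. The group's median log2 fold change was 0.25. At an unadjusted p under 0.05 (limma) 4 were higher and 0 lower, against 5079 of all 13188 genes in either direction. Hif1a, the oxygen-regulated subunit of HIF, stood at 15.0, 15.2 and 13.8 FPKM in Evx1as KO, 14.8, 16.8 and 17.1 in EVX1 KO and 12.5 and 14.9 in WT. Its libraries overlapped between groups, and the log2 fold change was 0.09 ± 0.11 (adjusted p = 0.569). HIF is controlled mainly through the stability of this protein, on which transcript levels do not report.

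Vegfa (chr17:46153942-46169326, deposited coordinates), the growth factor of blood vessels and a standard HIF target, stood at 15.5, 11.1 and 14.5 FPKM in Evx1as KO, 17.8, 16.2 and 12.8 in EVX1 KO and 5.86 and 7.29 in WT. All 6 knockout libraries lay above both WT libraries, and the knockouts overlapped. Vegfa rose in Evx1as KO by 0.95 ± 0.18 on the log2 scale (adjusted p = 0.00668), a call lost without WT replicate 1 (0.057, range over the alternatives 0.00436 to 0.057). Its most upstream RefSeq window held neither core, which says nothing of its other windows or of distal elements.

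The remaining hypoxia genes gave values without a call. Bnip3, a mitophagy receptor, stood at 8.10, 4.77 and 9.02 FPKM in Evx1as KO, 5.85, 5.08 and 1.18 in EVX1 KO and 1.97 and 2.63 in WT. Its Evx1as KO libraries exceeded WT, but the log2 fold change of 1.30 ± 0.45 had an adjusted p of 0.0646 (0.00698 without EVX1 KO replicate 3, range over the alternatives 0.00698 to 0.241). The prolyl hydroxylases that mark HIF for destruction had log2 fold changes of 0.36 ± 0.16 for Egln1 (adjusted p = 0.122) and 0.49 ± 0.21 for Egln3 (0.115). Egln3 was called without Evx1as KO replicate 2 (adjusted p = 0.0151, range over the alternatives 0.0151 to 0.44). Log2 fold changes were 0.14 ± 0.15 for Kdm3a (a histone H3 lysine 9 demethylase), 0.14 ± 0.17 for Ndrg1 (a stress-response gene), 0.03 ± 0.24 for Ero1l (an oxidase of disulphide bond formation), 0.43 ± 0.26 for Ankrd37 and −0.16 ± 0.25 for Adm (adrenomedullin, a vasodilator peptide). None of these passed, Adm lay near 1 FPKM, and the Ankrd37 values in Evx1as KO were 4.98, 2.35 and 2.58 FPKM. Ero1l lies on chromosome 14, whose medians were 0.13, −0.36 and −0.34 (log2) in Evx1as KO replicates 1, 2 and 3. Its values there were 11.3, 6.19 and 6.67 FPKM, with 7.65 and 7.56 in WT, so its log2 fold change includes that shift.

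Other genes of the same pathways were also tested in Evx1as KO against WT, where 13% of all genes were higher and 11.4% lower. Of 38 other glucose enzymes 25 were tested, of which 7 rose (28%) and 4 fell (16%). Pck2, the mitochondrial phosphoenolpyruvate carboxykinase, stood at 14.5, 9.91 and 8.99 FPKM in Evx1as KO, 11.9, 12.5 and 10.7 in EVX1 KO and 4.75 and 4.58 in WT (fitted log2 change in Evx1as KO 1.07 ± 0.18, adjusted p = 0.00414). Pck2 lies on chromosome 14, whose medians were 0.13, −0.36 and −0.34 (log2) in Evx1as KO replicates 1, 2 and 3. Pgm2, a phosphoglucomutase, rose by 0.98 ± 0.23 (adjusted p = 0.0177), and Pgam2, the muscle phosphoglycerate mutase, fell by 0.93 (SE 0.25, adjusted p = 0.027) at 0.414 to 1.10 FPKM in Evx1as KO against 2.85 and 1.64 in WT.

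Of 22 other pyruvate and lactate genes 17 were tested, of which 2 rose (11.8%) and 3 fell (17.6%), and the 29.4% called lies near the 24.5% of all genes. Mpc2, a subunit of the mitochondrial pyruvate carrier, fell by 0.67 (log2, SE 0.16, adjusted p = 0.019), with 6.02, 5.69 and 4.55 FPKM in Evx1as KO against 10.4 and 8.04 in WT. Pcx, pyruvate carboxylase, rose by 0.52 ± 0.14 (adjusted p = 0.0282) and Got1, a cytosolic aspartate aminotransferase of the malate shuttle, by 0.46 ± 0.08 (adjusted p = 0.00571). Pdp2, a phosphatase that reactivates pyruvate dehydrogenase, had a log2 fold change of 0.46 ± 0.20 without a call (adjusted p = 0.128).

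Of 37 other HIF pathway genes 31 were tested, of which 4 rose (12.9%) and 5 fell (16.1%), and the 29% called lies near the 24.5% of all genes. Hif3a, which encodes an alpha subunit with inhibitory forms, stood at 14.5, 10.2 and 17.4 FPKM in Evx1as KO, 8.02, 5.44 and 4.29 in EVX1 KO and 2.46 and 2.14 in WT. The 3 groups did not overlap, and its log2 fold change in Evx1as KO, 2.16 ± 0.25 (adjusted p = 0.00131), exceeded that of any member. Lox, a collagen crosslinking enzyme, fell by 1.01 in Evx1as KO (log2, SE 0.24, adjusted p = 0.0174). Stc2, a secreted glycoprotein, had a log2 fold change of −0.77 ± 0.28 without a call (adjusted p = 0.0767).

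The second comparison set EVX1 KO cells against the same WT libraries. Only Vegfa rose, by 1.13 ± 0.18 on the log2 scale (adjusted p = 0.0293), and 0 members fell. At an unadjusted p under 0.05 (limma) 8 of 38 members were higher and 1 lower, against 2800 of all 13188 genes in either direction. Calls were few among all genes too, at 1.24% (0.69% higher and 0.554% lower), and 1 of 38 members is 2.63%. The Vegfa call was lost in 8 of 17 alternatives: without Evx1as KO replicate 3 (0.0596), EVX1 KO replicate 1 or 2 (0.0739 and 0.116) or WT replicate 1 or 2 (0.195 and 0.0933), with no filter (0.0737), with the replicate number as a block (0.0694) and with only the 2 groups in the fit (0.0627). Its adjusted p ranged between 0.0174 and 0.195. The members' median log2 fold change was 0.20, against 0.02 over all genes tested.

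Pyruvate and lactate genes stood higher in EVX1 KO without a call. All 9 had a positive log2 fold change, with a median of 0.36, and 4 of them passed an unadjusted p of 0.05 (2800 of all 13188 genes did). By library, their median relative to the WT mean was 0.56, 0.41 and 0.06 (log2) in EVX1 KO replicates 1, 2 and 3, and 5 of 9 lay above the WT mean in replicate 3. Values were 0.36 ± 0.09 for Ldha (adjusted p = 0.0896), 0.60 ± 0.18 for Slc16a1 (0.111), 0.70 ± 0.25 for Pdk1 (0.17) and 0.45 ± 0.10 for Pdk3 (0.0702). Egln3, at 4.36, 4.57 and 4.13 FPKM in EVX1 KO and 2.49 and 1.79 in WT, had a log2 fold change of 0.78 ± 0.21 (adjusted p = 0.0913). Of the 17 glycolytic enzymes 0 were called, where only 1.24% of all genes were called. At an unadjusted p under 0.05 (limma) 2 of the 17 were higher and 1 lower, and the median over the 17 was 0.16. Among 73 tested genes of the other glucose, pyruvate and HIF lists, Pck2 rose (1.16 ± 0.18, adjusted p = 0.0276).

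EVX1 KO libraries differed among themselves in these genes. EVX1 KO replicate 1 was the highest of its group for 29 of 38 members (76.3%, against 37.5% of all genes), and replicate 3 was the lowest for 29 of 38 (76.3%, against 37.2%). Relative to the WT mean, the median over the members was 0.35, 0.27 and −0.04 (log2) in EVX1 KO replicates 1, 2 and 3, and 0.42, 0.21 and 0.29 in Evx1as KO replicates 1, 2 and 3. The median over all genes lay between 0.01 and 0.03 in all 6 knockout libraries. Without EVX1 KO replicate 3, 4 members were called higher against WT, namely Ldha (0.43, adjusted p = 0.0384), Slc16a1 (0.79, 0.0215), Pdk1 (0.94, 0.0448) and Vegfa (1.25, 0.0174). The adjusted p over the alternatives was 0.0384 to 0.279 for Ldha, 0.0215 to 0.322 for Slc16a1 and 0.0448 to 0.421 for Pdk1. Over all genes the count of calls was then 634, against 164 with all libraries.

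**Figure D4:**
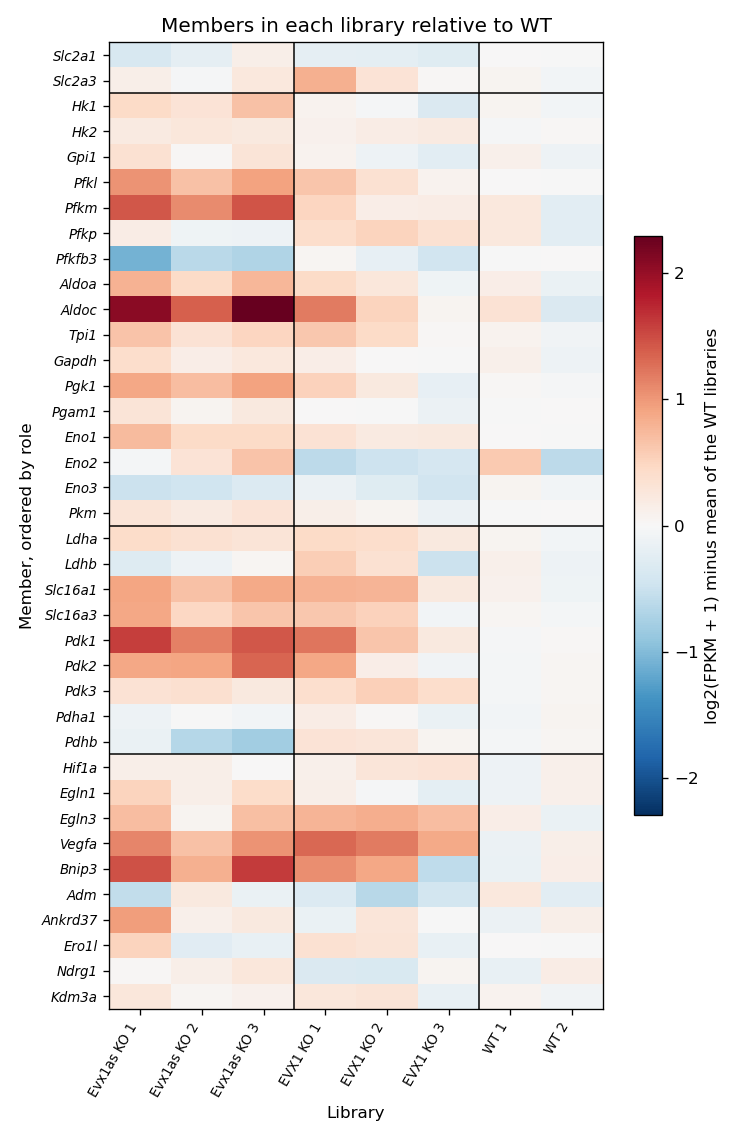
Log2(FPKM + 1) of each of the 38 members minus the mean of the WT libraries (colour), by library, with lines between the roles and the groups. The rows of Pfkm, Aldoc and Pdk1 are strongly positive in the Evx1as KO libraries, and the column of EVX1 KO replicate 3 has a median of −0.04.

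Chromosome 8 carries Egln1 and Ankrd37 and had medians of −0.38 and −0.30 (log2) in EVX1 KO replicates 1 and 2, against 0.08 in replicate 3. Egln1 stood at 11.5, 10.2 and 8.72 FPKM in EVX1 KO and 9.42 and 11.4 in WT (fitted log2 change −0.04 ± 0.16, adjusted p = 0.915). With chromosome medians removed its value was 0.22 (adjusted p = 0.619). Ankrd37 had 0.04 ± 0.26 (adjusted p = 0.944) and 0.30 (adjusted p = 0.578) in the same fits. Ero1l, on chromosome 14, had 0.16 ± 0.24 (adjusted p = 0.732) and 0.00 (adjusted p = 0.998).

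The third comparison set EVX1 KO directly against Evx1as KO, and asked where the knockouts differ from each other. Of the 38 members 5 were lower and 2 higher in EVX1 KO, while 22% of all genes were called (10.7% higher and 11.3% lower), against 18.4% of the members. All 5 that were lower are glycolytic enzymes, of which 5 of 17 were lower and 1 higher. Pfkm was lower by 1.04 (SE 0.16, adjusted p = 0.00301), Aldoc by 1.33 (SE 0.33, adjusted p = 0.0213), Pgk1 by 0.65 (SE 0.16, adjusted p = 0.0202), Hk1 by 0.57 (SE 0.14, adjusted p = 0.0195) and Pfkl by 0.52 (SE 0.14, adjusted p = 0.0316) on the log2 scale. For each of these 5 genes all EVX1 KO libraries lay below all Evx1as KO libraries, at the values given above. Pfkfb3 was higher by 0.60 ± 0.15 (adjusted p = 0.0227) and Pdhb by 0.75 ± 0.16 (adjusted p = 0.0113), again without overlap.

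Genes of lactate export and the hypoxia response gave no call between the knockouts. Log2 fold changes of EVX1 KO against Evx1as KO were 0.00 ± 0.08 for Ldha (adjusted p = 0.975), −0.22 ± 0.16 for Slc16a1 (0.34), −0.30 ± 0.18 for Slc16a3 (0.246) and 0.18 ± 0.16 for Vegfa (0.453). Pdk1 and Pdk2 had −0.70 ± 0.23 (adjusted p = 0.058) and −0.72 ± 0.24 (0.0628), and Pdk3 had 0.14 ± 0.09 (0.295). Pdk1 and Pdk2 were called lower without EVX1 KO replicate 1 (0.00866 and 0.00904), and their adjusted p ranged between 0.00866 and 0.162 and between 0.00904 and 0.199 over the alternatives. Of the 10 hypoxia response genes 0 were called, and Hif1a had a log2 fold change of 0.14 ± 0.10 (adjusted p = 0.343). At an unadjusted p under 0.05 (limma) 0 of the 10 were higher and 2 lower (Egln1 and Ndrg1), against 4873 of all 13188 genes in either direction. Egln1 lies on chromosome 8, whose medians were −0.38, −0.30 and 0.08 (log2) in EVX1 KO replicates 1, 2 and 3. They were 0.16, 0.15 and 0.15 in Evx1as KO, so the Egln1 log2 fold change of −0.39 ± 0.14 includes that shift. Over the alternatives it ran from −0.51 to −0.04.

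Pfkm and Pdhb kept their calls between the knockouts in all 17 alternatives (adjusted p up to 0.0172 and 0.0472), and with chromosome medians removed the Pdhb value was 0.39 (adjusted p = 0.019). Hk1, Pfkl, Aldoc, Pgk1 and Pfkfb3 were each lost without Evx1as KO replicate 1 (0.0507, 0.0999, 0.0676, 0.0615 and 0.064 in that order), replicate 3 (0.0776, 0.1, 0.0828, 0.0757 and 0.0515) or EVX1 KO replicate 2 (0.0527, 0.0933, 0.0721, 0.0608 and 0.0731). All 5 were also lost with no filter on low values (0.0503, 0.0807, 0.0701, 0.0632 and 0.0613 in the same order). Pfkl and Aldoc were also lost without EVX1 KO replicate 3 (0.0695 and 0.0522) and Pfkfb3 without EVX1 KO replicate 1 (0.0566). The adjusted p over the alternatives was 0.0168 to 0.0776 for Hk1, 0.011 to 0.1 for Pfkl, 0.0111 to 0.0828 for Aldoc, 0.00566 to 0.0757 for Pgk1 and 0.0135 to 0.0731 for Pfkfb3. Hif3a, of the HIF list, was lower in EVX1 KO by 1.13 (SE 0.22, adjusted p = 0.00937), Pfkfb2 was higher by 0.94 ± 0.17 (adjusted p = 0.00627) and Stc2 by 0.97 ± 0.25 (adjusted p = 0.0256).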

How the data were processed

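The authors deposited 1 table of FPKM for 8 libraries. Groups and replicate numbers came from the labels. Per the submitters' processing notes, CASAVA, TopHat2 2.0.11 and the builds mm9 and mm10 are named with no role; how FPKM was computed, on which annotation and with which strand setting are steps not given in the sources used here, so overlapping genes and pseudogene copies are uncertain. Symbols on several lines had the same values and were used once. Genes reaching 1 FPKM in 2 or more of 8 libraries were kept (13188 genes). Log2(FPKM + 1) entered 1 model of 3 group means over all libraries (R 4.3.3, limma 3.58.1, two-sided moderated test with trended prior), with adjusted p under 0.05 called. The fit was tested on simulated data with known changes. It recovered 44.8% of 1.5-fold changes in Evx1as KO against WT, 52.2% in EVX1 KO against WT and 58.2% in EVX1 KO against Evx1as KO. For 2-fold changes these were 77.6%, 77.6% and 89.55%, so a change of 1.5-fold can easily go without a call. The comparisons against WT share their WT libraries. Steps between low values put relative depth between 0.859 and 1.19 of WT replicate 1, but only 31.5% to 34.7% of values used lay at a step, so no counts were recovered. Isozyme shares are percent of summed FPKM, computed here. Named were all members, up to 4 tested genes of each companion list that changed most in size (log2) in Evx1as KO against WT, and Evx1 and Evx1as; 1 gene this rule names is not reported here. The members and lists were chosen with earlier results of these data known. Promoter windows are RefSeq's on GRCm38.p6, and deposited coordinates were not converted. Python 3.11.15, pandas 2.3.3, numpy 2.4.6 and matplotlib 3.10.9 were used.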

Additional observations from a re-analysis of the deposited data

Results flagged for a closer look

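The effects of the 2 knockouts differed by the direct test (limma, adjusted p under 0.05) for 7 members. That is 18.4% of the 38 members, against 22% of all genes called in this comparison. EVX1 KO minus Evx1as KO was −0.57 for Hk1, −0.52 for Pfkl, −1.04 for Pfkm, −1.33 for Aldoc and −0.65 for Pgk1 on the log2 scale. It was 0.60 for Pfkfb3 and 0.75 for Pdhb. Pdhb lies on chromosome 14, whose medians were 0.13, −0.36 and −0.34 (log2) in Evx1as KO replicates 1, 2 and 3. They were 0.17, 0.18 and 0.16 in EVX1 KO, and with chromosome medians removed the Pdhb value was 0.39. Markers of primed epiblast and of streak and mesoderm also differed between the knockouts, and their part in these differences was not tested.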

How the results depend on the processing

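No called member changed sign under any of the 17 alternatives. Members called higher and lower numbered 12 and 2 in Evx1as KO against WT, 1 and 0 in EVX1 KO against WT, and 2 and 5 in EVX1 KO against Evx1as KO. With no filter on low values, which adds genes to the adjustment, EVX1 KO against WT had 0 higher, and EVX1 KO against Evx1as KO had 1 higher and 1 lower. With only the 2 groups compared in the fit, EVX1 KO against WT had 0 higher. Leaving out 1 library at a time gave 4 to 16 higher and 0 to 2 lower in Evx1as KO against WT, 0 to 4 higher in EVX1 KO against WT, and 1 to 3 higher and 1 to 9 lower in EVX1 KO against Evx1as KO. The low of 4 came without WT replicate 2 (6 without WT replicate 1), and the high of 9 without Evx1as KO replicate 2 or EVX1 KO replicate 1. Fits with fewer libraries have less power, and other causes were not tested.

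The labels state no pairing of replicates. Deviations from group means correlated at −0.17 to 0.11 for same-numbered libraries and at −0.24 to 0.26 for other numbers. In groups this small the deviations constrain each other, and those of the WT libraries are mirror images. The check therefore cannot tell whether replicate numbers pair the samples. With a replicate block, Evx1as KO against WT had 13 higher and 1 lower, EVX1 KO against WT had 0 higher, and EVX1 KO against Evx1as KO had 2 higher and 7 lower.

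Over all genes, EVX1 KO against WT had 164 calls, against 28 with no filter, 78 with no intensity trend, 28 with a replicate block and 27 with only the 2 groups compared. Leaving out 1 library gave 4 (without EVX1 KO replicate 2) to 634 (without EVX1 KO replicate 3). That range was 1421 to 3414 for Evx1as KO against WT, against 3230, and 1409 to 2666 for EVX1 KO against Evx1as KO, against 2903. Without read counts no counting error can be given for low genes such as Adm, Pdk2 or Bnip3.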
